A study of Homo sapiens with 16 samples.

Results

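Total RNA was compared between MDA-MB-231 cells with a double modulation of isoleucine tRNAs and control cells. The comparison uses 4 of the 16 libraries of the series, chosen by their labels, with 2 libraries in each group. MDA-MB-231 is a human triple-negative breast cancer line of basal B type, and the labels name a xenograft cell line as its source. The double-modulation cells carried CRISPRi, a catalytically dead Cas9 fused to a transcriptional repressor, aimed at tRNA-Ile-GAU (Ile GAT in the titles), together with an overexpression construct for tRNA-Ile-UAU (OE Ile TAT). The control cells carried CRISPRi aimed at eGFP and a control construct, so CRISPRi and a construct are shared by both groups. The effect of a guide and the history of the cells that received it cannot be told apart in this design. No treatment was given, and the cells grew in DMEM with serum. The labels give no clone, passage or separate culture for the libraries. The p-values below therefore reflect the variation among these libraries alone, and that variation may be technical. The series also holds total RNA of CRISPRi Ile GAT with the control construct (knockdown alone) and of CRISPRi eGFP with OE Ile TAT (construct alone), and ribosome footprints of all 4 kinds of cells, again with 2 libraries each. Per the series' design text, the study was about ribosome occupancy after this change of tRNAs, and total RNA gives the transcript levels beside it.

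Isoleucine has several codons, and a tRNA is named after its anticodon. The tRNA with anticodon UAU pairs with the rare codon AUA, whereas tRNAs with GAU or its inosine-bearing counterpart serve AUC and AUU. RNA polymerase III makes tRNAs from short genes that occur in several copies. In the GRCh38.p14 table, the GAU copies lie on the X chromosome at chrX:3838377-3838450, chrX:3876801-3876874 and chrX:3915230-3915303. The count files list 0 tRNA-Ile genes, so the knockdown and the overexpression themselves could not be checked here. PRKX, a protein kinase gene that lies near these copies (chrX:3604340-3713649), had 14.4 and 20.7 CPM, counts scaled to a common library total, in double-modulation cells, against 15.8 and 15.7 CPM in control cells, and the groups overlapped.

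Counts on genes numbered 5446599 and 3963862 in the double-modulation libraries and 2512247 and 3008555 in the control libraries. Of 26485 listed symbols, 11720 had enough counts to be tested. All 10 markers of MDA-MB-231 cells were above 10 CPM in the 4 libraries. Their summed level was 5457 and 5525 CPM in double-modulation cells and 5556 and 5581 CPM in control cells. Of the 10 luminal markers, expected low or absent, TFF1 alone was at 0 in the 4 libraries, and 4 were above 10 CPM in all of them. The luminal sum was 164 and 89.4 CPM in double-modulation cells, against 125 and 127 CPM in control cells. Fibroblast markers summed to 14.7 and 15.7 CPM in double-modulation cells and to 7.10 and 18.3 CPM in control cells, with COL3A1, DCN, LUM, PDGFRA, THY1 and FAP at 0. Immune markers summed to 33.9 and 8.51 CPM against 11.4 and 14.3 CPM, with CD3E, AIF1 and CD79A among those at 0. Endothelial markers summed to 76.9 and 43.6 CPM against 42.2 and 48.3 CPM. Of these 10, CDH5 and ERG were at 0 and 1 was above 10 CPM in the 4 libraries. Of 5 erythroid markers, HBA1, HBA2 and HBB were among those at 0, and the sum was 0.355 and 0 CPM against 0.395 and 0.333 CPM.

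The double-modulation libraries stood apart from each other. Across the 11720 tested genes, the log2 CPM of replicate 1 minus replicate 2 had an SD of 0.63 in double-modulation cells, against 0.36 in knockdown-alone cells, 0.39 in construct-alone cells and 0.34 in control cells. The difference was over 1 in size in 1272 genes (10.9%) in double-modulation cells, and in 1227 of these replicate 1 was the higher. The corresponding numbers were 221 genes with knockdown alone, 342 with the construct alone and 249 in control cells. For this reason gene levels and list medians are given for both libraries.

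Of the 11720 genes, 8 passed an adjusted p of 0.05 between double-modulation and control cells (0.0683%). Of these, 2 rose (0.0171%) and 6 fell (0.0512%) in edgeR's quasi-likelihood test with Benjamini-Hochberg adjustment over all genes. The risen genes were CDH11, which encodes the mesenchymal cell adhesion protein cadherin-11, and ZNF10, a KRAB zinc finger repressor. The fallen genes included the serotonin receptor gene HTR1F, the laminin chain gene LAMB1, the semaphorin gene SEMA3C, the nucleotide sugar transporter gene SLC35B4 and CYP51A1, the lanosterol demethylase of cholesterol synthesis. LAMB1, SEMA3C, SLC35B4 and CYP51A1 lie on chromosome 7. At an unadjusted p under 0.05 there were 893 genes (7.62%). The start regions of a risen gene, of the gene with the lowest ratio and of the sterol gene are printed here, from 250 bases before to 50 bases after the RefSeq start in GRCh38.p14. Each runs 5′ to 3′ on the gene's own strand, and capitals mark matches on either strand to the CCAAT box or to the GC box GGGCGG. For HTR1F it is the first of the start sites listed.
ZNF10: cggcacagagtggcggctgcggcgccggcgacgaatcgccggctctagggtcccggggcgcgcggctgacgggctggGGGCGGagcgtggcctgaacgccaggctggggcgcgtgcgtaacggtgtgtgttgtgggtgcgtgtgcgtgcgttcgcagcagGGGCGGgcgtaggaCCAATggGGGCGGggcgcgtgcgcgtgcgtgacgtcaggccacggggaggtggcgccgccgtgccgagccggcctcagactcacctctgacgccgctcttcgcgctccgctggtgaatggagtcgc
HTR1F: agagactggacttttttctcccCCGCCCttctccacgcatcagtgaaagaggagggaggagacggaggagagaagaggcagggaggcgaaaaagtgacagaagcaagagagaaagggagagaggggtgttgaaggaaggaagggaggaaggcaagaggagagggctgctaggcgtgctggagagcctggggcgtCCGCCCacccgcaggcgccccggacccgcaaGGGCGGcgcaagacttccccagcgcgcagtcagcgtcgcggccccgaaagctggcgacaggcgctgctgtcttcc
CYP51A1: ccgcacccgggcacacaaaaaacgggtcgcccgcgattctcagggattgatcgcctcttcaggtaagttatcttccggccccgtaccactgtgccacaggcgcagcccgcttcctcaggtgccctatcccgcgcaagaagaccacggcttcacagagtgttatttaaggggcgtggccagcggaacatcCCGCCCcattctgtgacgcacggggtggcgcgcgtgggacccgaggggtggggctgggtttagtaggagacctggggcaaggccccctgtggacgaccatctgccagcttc
These lie at chr12:133130377-133130676 on the plus strand, chr3:87792456-87792755 on the plus strand and chr7:92134428-92134727 on the minus strand. The motifs searched on both strands were the CCAAT box (CCAAT), the GC box (GGGCGG) and the TATA box (TATAAA). Of 35116 regions of the same length in the table, 34.6% hold the CCAAT box, 45.0% the GC box and 11.5% the TATA box. The ZNF10 region held the CCAAT box in 1 place and the GC box in 3, the HTR1F region the GC box in 3 and the CYP51A1 region the GC box in 1, with no overlap between matches. The TATA box had 0 matches in these windows.

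CDH11 (chr16:64943753-65123744) stood at 64.0 and 71.1 CPM in double-modulation cells, against 16.2 and 16.7 CPM in control cells. Its log2 fold change was 2.03 ± 0.16 (SE; adjusted p = 0.0024), a 4.10-fold higher level. Both double-modulation libraries lay far above both control libraries and close to each other. With knockdown alone, CDH11 was at 90.6 and 76.7 CPM, and with the construct alone at 27.3 and 27.3 CPM. ZNF10 (chr12:133130627-133159465) had 204 and 262 CPM in double-modulation cells and 105 and 111 CPM in control cells, a log2 fold change of 1.11 ± 0.13 (SE; adjusted p = 0.027). It was at 273 and 255 CPM with knockdown alone and at 118 and 127 CPM with the construct alone. The KRAB domain of ZNF10 is a common part of CRISPRi repressor fusions, and gene counts do not separate reads of the native gene from those of a construct with the same sequence.

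HTR1F (chr3:87792706-87993839) had 1 and 2 counts in the double-modulation libraries, against 33 and 36 counts in the control libraries. At these depths its level was 39.2-fold lower in double-modulation cells (95% exact counting interval 12.9 to 195, which covers counting error only; adjusted p = 0.0255 in edgeR's test). The gene had 3 and 1 counts with knockdown alone and 31 and 36 counts with the construct alone. Both double-modulation libraries lay below both control libraries without overlap.

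LAMB1 (chr7:107923799-108003161), the beta-1 chain of basement membrane laminins, had 191 and 184 CPM in double-modulation cells and 347 and 356 CPM in control cells, a log2 fold change of -0.91 ± 0.11 (SE; adjusted p = 0.027). SEMA3C (chr7:80742538-80922389), a secreted guidance cue, had 191 and 209.6 CPM in double-modulation cells and 385 and 349.6 CPM in control cells, a log2 fold change of -0.87 ± 0.10 (SE; adjusted p = 0.0255). SLC35B4 (chr7:134289332-134320338) stood at 60.0 and 61.3 CPM in double-modulation cells against 114 and 108 CPM in control cells. CYP51A1 (chr7:92112153-92134803) stood at 122 and 121 CPM in double-modulation cells against 219 and 197 CPM in control cells. Their log2 fold changes were -0.87 ± 0.11 and -0.78 ± 0.11 (SE), with adjusted p of 0.038 and 0.049. In all 4 genes on chromosome 7 the groups were separate, and the knockdown-alone libraries also lay below both control libraries. The construct-alone libraries stood at 421 and 384 CPM for LAMB1, 354 and 341 CPM for SEMA3C, 120.3 and 113 CPM for SLC35B4 and 167 and 169 CPM for CYP51A1.

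**Figure D1:**
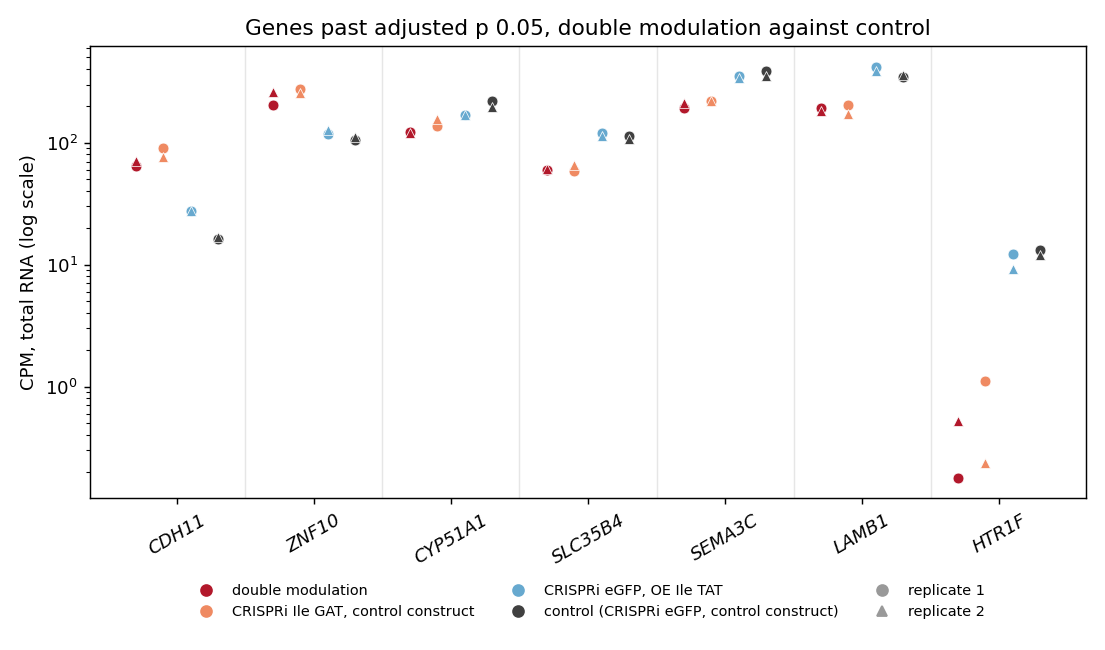
Total RNA level (CPM, log axis) of genes that passed an adjusted p of 0.05, in each of the 8 total RNA libraries, with groups from left to right as double modulation, knockdown alone, construct alone and control. Circles are replicate 1 and triangles replicate 2. CDH11 at 64.0 and 71.1 CPM in double-modulation cells lies above control at 16.2 and 16.7 CPM, and the fallen genes shown lie below control in both libraries.

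All 8 genes kept their call when either double-modulation library was left out. All 8 lost it when either control library was left out: 0 genes passed without control replicate 1 and 0 without control replicate 2 (478 and 483 genes at an unadjusted p under 0.05), and CDH11 then had an adjusted p of 0.142 and 0.158 in edgeR's test. Leaving out 1 double-modulation library changed the counts the other way. Without replicate 2, so with double replicate 1 alone against control, 1146 genes were higher (9.78%) and 691 lower (5.9%). Without replicate 1, with double replicate 2 alone, 74 were higher (0.631%) and 209 lower (1.78%). In these fits the lone library is assumed to vary like the libraries of the other groups. DESeq2 called 6 higher and 29 lower genes, and limma with library quality weights called 2 and 1, with CDH11, ZNF10 and SEMA3C left. The double-modulation libraries had the lowest of those weights, 0.351 and 0.314, against 1.76 and 1.73 for control.

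Ribosomal protein genes differed between the double-modulation replicates as a group. These encode the proteins of the cytosolic ribosome. Relative to the mean of the control libraries, the median log2 level of 31 small-subunit genes was 1.01 in double replicate 1 and -0.49 in double replicate 2, and that of 46 large-subunit genes was 0.77 and -0.12. The control libraries stood at 0.04 and -0.04 for the small subunit and at 0.05 and -0.05 for the large. The construct-alone libraries stood at -0.51 and -0.11 for the small subunit and at -0.38 and -0.05 for the large. Replicate 1 of the construct-alone cells was thus also low. In double-modulation cells, replicate 1 was above replicate 2 in 29 of 31 and 43 of 46 genes. Large-subunit genes took 1.45% and 0.787% of the counts in the double-modulation libraries and 0.948% and 0.885% in the control libraries.

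With both libraries together, 0 of the 77 ribosomal protein genes passed in edgeR's test, with 9 at an unadjusted p under 0.05, and DESeq2 and limma with quality weights also called 0. With double replicate 1 alone, 26 small-subunit and 34 large-subunit genes passed as higher than control. With double replicate 2 alone, 9 and 10 passed as lower, so the direction depended on the library. RPS21 had 279.7 and 27.4 CPM in double-modulation cells and 88.7 and 78.8 CPM in control cells. RPS15 had 118 and 15.0 CPM against 35.6 and 33.7 CPM, and RPL35 had 310.0 and 40.6 CPM against 115 and 107 CPM. Of the large-subunit genes 10 of 46 (21.7%) and of the small-subunit genes 5 of 31 (16.1%) were above control in both double-modulation libraries and 0 below, against 16.2% and 15.6% of all tested genes. Among those above were RPS24 (437 and 417 CPM against 365 and 346 CPM), RPS4X (915 and 889 CPM against 752 and 758 CPM) and RPL5 (848 and 819.7 CPM against 719 and 719 CPM), with adjusted p of 0.47, 0.52 and 0.64. These 3 were chosen after their values were seen.

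Among the 5517 genes with a mean log2 CPM of at least 5, replicate 1 exceeded replicate 2 by more than 1 in 183 genes, and 35 of these were ribosomal protein genes of the 69 in that range. The 8 highest included RPS21, S100A6, LGALS1, RPS15, RPL35, FTL and RPL29. S100A6, a small calcium-binding protein gene, had 1549 and 161 CPM in double-modulation cells and 635 and 491 CPM in control cells. LGALS1, which encodes galectin-1, had 429.8 and 51.4 CPM against 154 and 129.9 CPM, and the ferritin light chain gene FTL had 437 and 59.7 CPM against 149 and 117 CPM. The control values of these genes lay between the values of the double-modulation libraries. Replicate 1 of the construct-alone cells was also low for them, with RPS21 at 26.1 CPM and S100A6 at 186 CPM. At the other end were RNU4-2, SNORD17, WBP4, DNTTIP2, EIF5B, RAB27B, ATAD5 and SOCS6, with a difference of -1.03 to -0.74. RNU4-2, a U4 spliceosomal RNA, had 40.1 and 82.2 CPM in double-modulation cells and 34.4 and 36.1 CPM in control cells. The small nucleolar RNA SNORD17 had 28.5 and 52.7 CPM against 118 and 102 CPM, with an adjusted p of 0.115. In the footprint libraries the double-modulation replicates lay closer together for the 7 named genes that were higher in replicate 1: RPS21 had 518 and 543 footprint CPM in double-modulation cells and 500.1 and 555 CPM in control cells, and S100A6 had 8464 and 8046 CPM against 9238 and 9391 CPM.

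**Figure D2:**
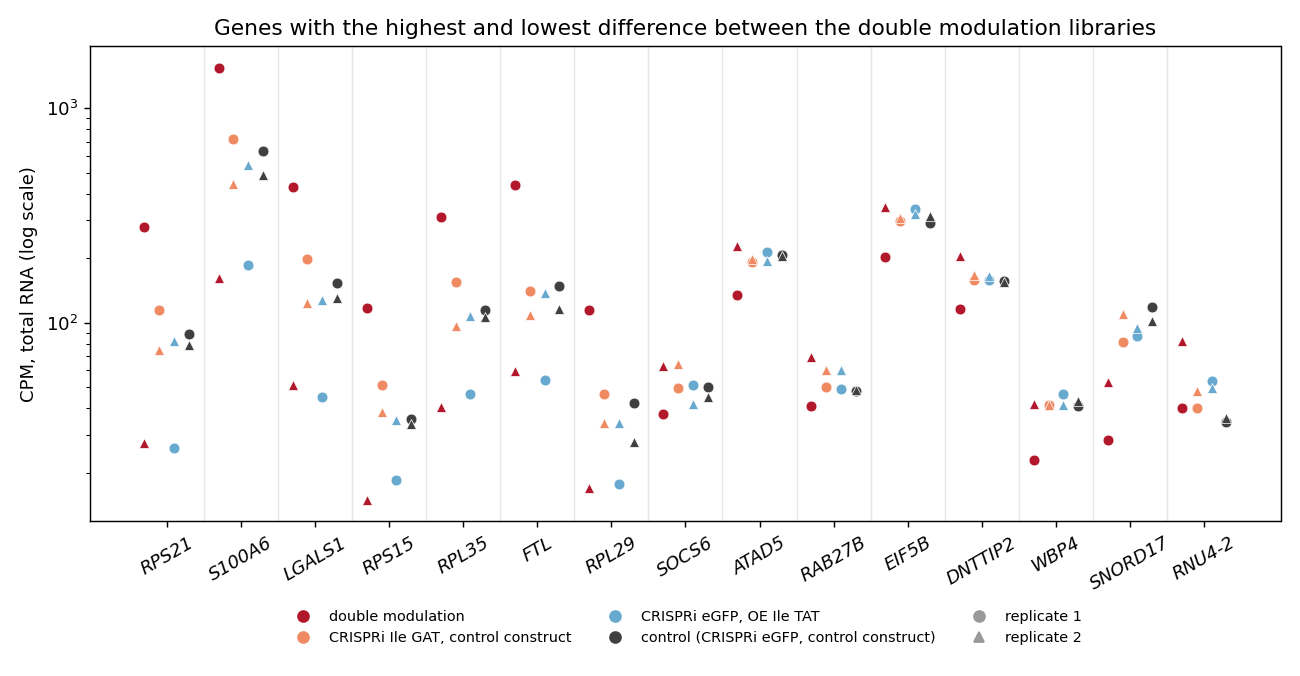
Total RNA level (CPM, log axis) of genes with the highest (left) and lowest (right) difference between the double-modulation replicates, in each total RNA library, with groups from left to right as double modulation, knockdown alone, construct alone and control. Circles are replicate 1 and triangles replicate 2. For RPS21 the double-modulation libraries lie at 279.7 and 27.4 CPM, on either side of control at 88.7 and 78.8 CPM.

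The replicate difference moved with the length of the gene on the genome. In the quartile of genes with the shortest span (0.061 to 13.0 kb, 2892 genes), the median log2 level against control was 0.29 in double replicate 1 and -0.14 in double replicate 2. In the quartile with the longest span (78.6 to 1987 kb, 2892 genes) it was -0.11 and 0.06. Spearman's rho between span and level against control, across 11566 genes of 1 library, was -0.335 in double replicate 1 and 0.229 in double replicate 2. Genes are not independent replicates, and these values share each library's depth and scaling. By the GC share of the start region the medians differed less, from -0.02 to 0.06 in replicate 1 and from 0.02 to -0.01 in replicate 2 between the lowest and the highest quartile. The part of gene span in the results above was not tested.

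A ribosomal protein score was the mean log2 CPM of the ribosomal protein genes, minus its mean over the 8 total RNA libraries. It was 0.84 and -0.38 in double-modulation cells and 0.04 and -0.06 in control cells. With the construct alone it was -0.51 and -0.07, and with knockdown alone 0.16 and -0.01. The score was also entered as a covariate. This fit was chosen after the data were seen, and the score comes from the same libraries. It called 191 genes as higher (1.63%) and 322 as lower (2.75%), and all 8 genes above passed with it. Of the 322 lower genes, 172 lie on chromosome 7 (53.4%), which holds 553 of the tested genes (4.72%).

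Chromosome 7 genes were lower as a group in both double-modulation libraries. The median log2 fold change of its 553 tested genes was -0.35, and against the control mean it was -0.36 in double replicate 1 and -0.37 in double replicate 2. The medians of the other 22 chromosomes ran from -0.05 to 0.17. On chromosome 7, 335 genes (60.6%) were below both control libraries in both double-modulation libraries, against 13.3% of the genes on the other chromosomes and 15.6% of all tested genes, and 11 were above. Windows of 20 Mb along the chromosome had medians from -0.50 to -0.29 (8 windows). The chromosome took 3.68% and 3.73% of counts in double-modulation cells, 3.68% and 3.71% with knockdown alone, 4.74% and 4.73% with the construct alone, and 4.81% and 4.77% in control cells. In bulk RNA, fewer cells of a kind and less RNA per cell cannot be told apart.

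Chromosome 7 genes of known function were mostly below control as well. Of the 32 that belong to a described list or marker set, 21 were below control in both libraries and 1 was above, with a median log2 fold change of -0.29. Of all 553 tested genes of the chromosome, 335 (60.6%) were below and 11 above, with a median of -0.35. The 32 genes were thus near the chromosome as a whole. INSIG1, which holds back sterol-sensing transcription factors in the endoplasmic reticulum, had 267 and 259 CPM in double-modulation cells and 465 and 419 CPM in control cells (log2 fold change -0.75 ± 0.11, SE; adjusted p = 0.095 in edgeR's test). The histone variant gene H2AFV had 616 and 709 CPM against 1013 and 981 CPM (adjusted p = 0.112). CAV1, the main protein of caveolae, had 251 and 254 CPM against 351 and 322 CPM (adjusted p = 0.31 in edgeR's test). EGFR, the epidermal growth factor receptor gene, stood at 357 and 371 CPM against 363 and 339 CPM, with overlap between the groups. The exception above control was ASNS, asparagine synthetase, with 87.8 and 99.3 CPM against 68.5 and 77.8 CPM (adjusted p = 0.52). Chromosome 19 showed the opposite of a shared shift, with a median of 0.36 in double replicate 1 and -0.13 in double replicate 2. The replicates split on other chromosomes too. Chromosome 16 stood at 0.22 and -0.07 and chromosome 22 at 0.31 and -0.07. Chromosome 13 went the other way, at -0.10 and 0.11.

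**Figure D3:**
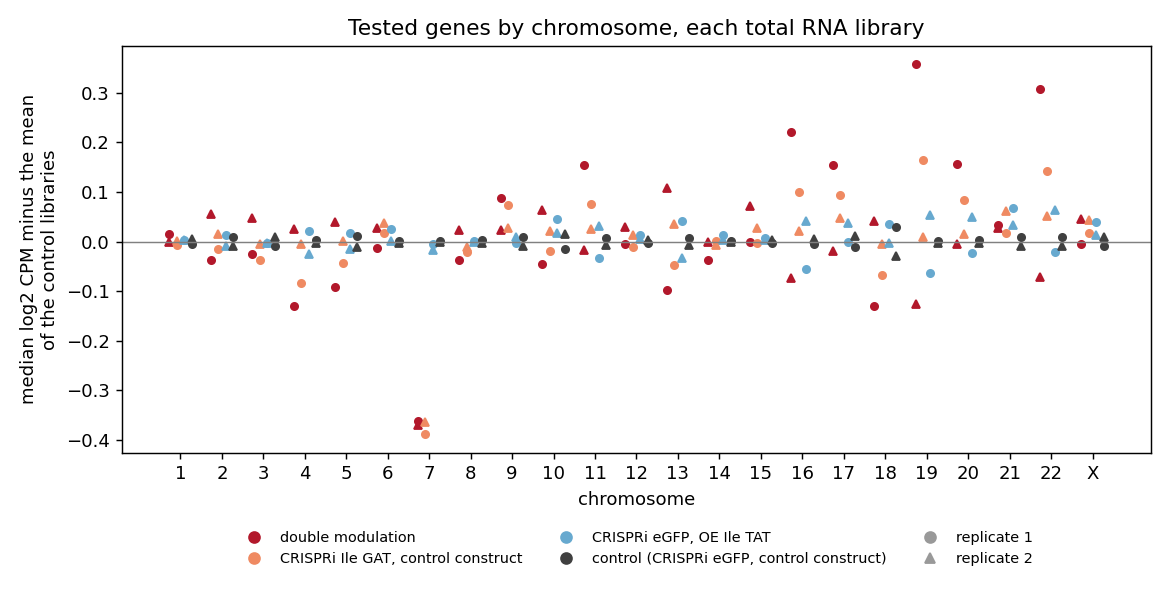
Median log2 CPM of the tested genes of each chromosome minus the mean of the control libraries (y axis), in each total RNA library, with groups from left to right as double modulation, knockdown alone, construct alone and control. Circles are replicate 1 and triangles replicate 2. Chromosome 7 lies at -0.36 and -0.37 in the double-modulation libraries, and chromosome 19 at 0.36 and -0.13.

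Lists of genes of known function were described by counts and medians, beside all tested genes: a median log2 fold change of 0.03, 16.2% above control in both double-modulation libraries and 15.6% below. Of the 29 lists, those for adhesion (CDH11), KRAB silencing (ZNF10), extracellular matrix (LAMB1) and cholesterol synthesis (CYP51A1) held a called gene each, and the other 25 held 0 in edgeR's test (642 genes, 66 of them at an unadjusted p under 0.05; DESeq2 called 5 and limma with quality weights 0). Beside the genes called in edgeR, DESeq2 called INSIG1, H2AFV, SCD, LAMA3, LAMB3, TIMP3, TARS, NT5E and NEAT1 of the list members. Of 23 cholesterol genes, 10 were below both control libraries in both double-modulation libraries and 0 above, with a median of -0.16. The median was 0.01 in double replicate 1 and -0.38 in double replicate 2, so most of it rested on replicate 2. Leaving out CYP51A1 and INSIG1 on chromosome 7, 8 of 21 were below (38.1%). With the construct alone, the library medians of the cholesterol list were -0.31 and -0.12, and with knockdown alone 0.04 and -0.07. HMGCS1, the synthase that feeds the mevalonate pathway, had 82.0 and 88.7 CPM in double-modulation cells and 127 and 124 CPM in control cells (adjusted p = 0.173). In footprints the list had a median of -0.36, and INSIG1 and DHCR7 were among the genes that fell there (log2 fold changes of -0.81 and -0.57).

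**Figure D4:**
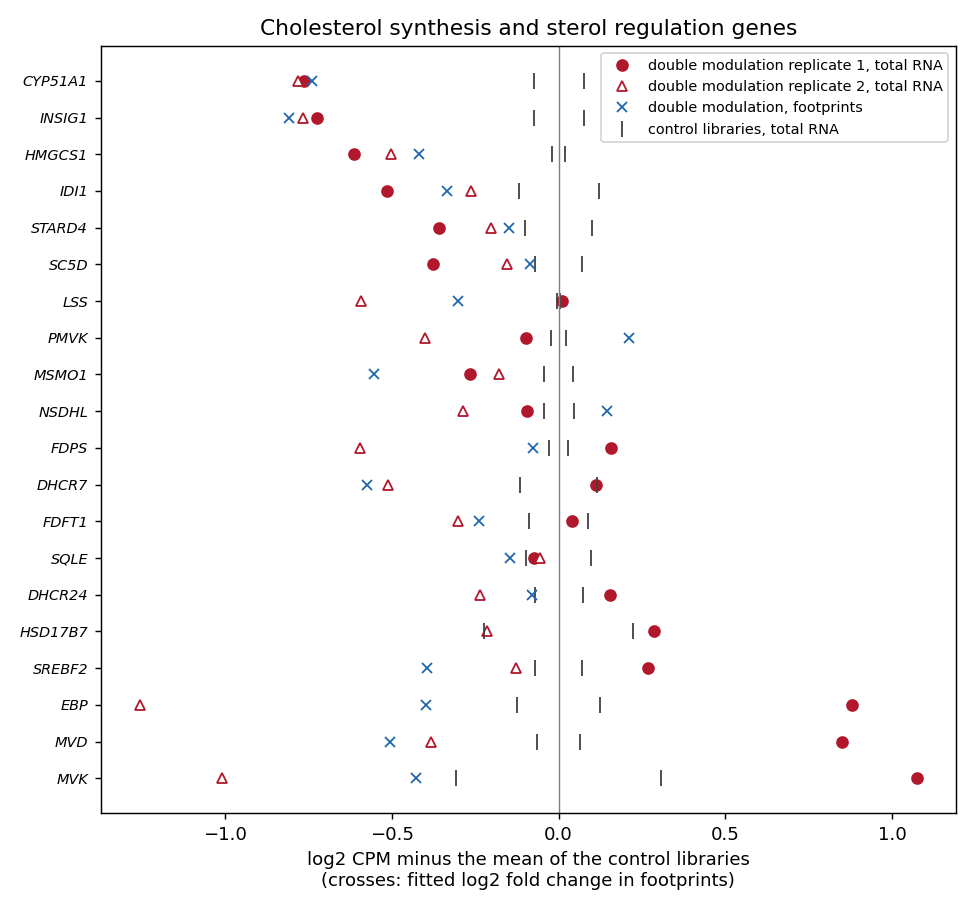
Log2 CPM minus the mean of the control libraries (x axis) for tested cholesterol genes (y axis) in total RNA, with circles for double-modulation replicate 1, open triangles for double-modulation replicate 2 and ticks for the control libraries; crosses are the fitted log2 fold change of double modulation in footprints. CYP51A1 and INSIG1 lie below control in both libraries, and HMGCS1 does too.

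In the fatty acid synthesis list, 7 of 15 genes were below control in both double-modulation libraries and 2 above, with a median log2 fold change of -0.08. Of all tested genes, 15.6% were below and 16.2% above, also for the histone and stress response counts that follow. The list's median level against control was -0.16 in double replicate 1 and -0.10 in double replicate 2. SCD, the stearoyl-CoA desaturase gene, had 1624 and 1315 CPM in double-modulation cells and 2018 and 1998 CPM in control cells (adjusted p = 0.304), and its footprints fell (log2 fold change -0.69). Of 18 histone genes, 8 were below and 2 above, with a median log2 fold change of -0.36. The median level was -0.22 in double replicate 1 and -0.27 in double replicate 2. The median fold change was -0.16 without control replicate 1, -0.24 without control replicate 2, and -0.29 and -0.28 without double replicate 1 and 2. HIST1H4H had 160 and 182 CPM against 216 and 225 CPM (adjusted p = 0.33), while H1F0, a linker histone gene, had 529 and 498 CPM against 374 and 416 CPM (adjusted p = 0.28). None of these histone or fatty acid genes passed in edgeR's test. Among 20 targets of the integrated stress response, the program set off by uncharged tRNAs and other stresses, 7 were above control in both libraries and 1 below, with a median log2 fold change of 0.14, and library medians of 0.17 in double replicate 1 and 0.05 in double replicate 2. Without double replicate 1 the median fold change was 0.04. PSAT1, of serine synthesis, had 155 and 173 CPM against 128 and 109 CPM (adjusted p = 0.27).

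Of 35 mitosis genes, 10 were above and 2 below, with a median log2 fold change of 0.07, which was 0.003 without double replicate 2. For this list and those that follow, 16.2% of all tested genes were above control in both double-modulation libraries and 15.6% below. The library medians of the mitosis genes were 0.004 in double replicate 1 and 0.14 in double replicate 2. Immediate early genes (6 above and 3 below of 20) had a median of 0.19, which was 0.12 without control replicate 1 and 0.06 without double replicate 1. The KRAB silencing list (4 and 1 of 12) had a median of 0.12 that turned to -0.02 without double replicate 2. Adhesion genes (7 and 5 of 21) had a median of -0.01 that turned to 0.15 without double replicate 2, and 0.04 without either control library. The library medians of these 3 lists were 0.16, -0.01 and 0.15 in double replicate 1 and 0.06, 0.13 and -0.03 in double replicate 2, so the directions of the KRAB and adhesion lists depended on the library. In the extracellular matrix list (6 above and 7 below of 33, median 0.11, with 0.21 in double replicate 1 and -0.02 in double replicate 2), the inhibitor gene TIMP3 had 997 and 1003 CPM in double-modulation cells and 638 and 703 CPM in control cells. Its log2 fold change was 0.58 ± 0.11 (SE; adjusted p = 0.14 in edgeR's test). The laminin chain gene LAMB3 had 372 and 251 CPM against 174 and 163 CPM, and LAMA3 had 68.1 and 62.3 CPM against 109 and 99.8 CPM (adjusted p of 0.155 and 0.14). So LAMB3 was above and LAMA3 and LAMB1 below control in both libraries, of which LAMB1 alone passed. Mitochondrial ribosomal proteins, oxidative phosphorylation subunits, snoRNA host genes and interferon-stimulated genes were above control in double replicate 1 and below it in double replicate 2, with medians of 0.27, 0.24, 0.23 and 0.26 in replicate 1 and -0.11, -0.17, -0.22 and -0.30 in replicate 2. The remaining lists, among them translation factors, tRNA processing, the proteasome, splicing, p53, NF-kB and YAP targets, had median fold changes from -0.06 to 0.14 and held 0 called genes in edgeR's test. Their library medians ran from -0.13 to 0.24 in double replicate 1 and from -0.17 to 0.19 in double replicate 2.

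**Figure D5:**
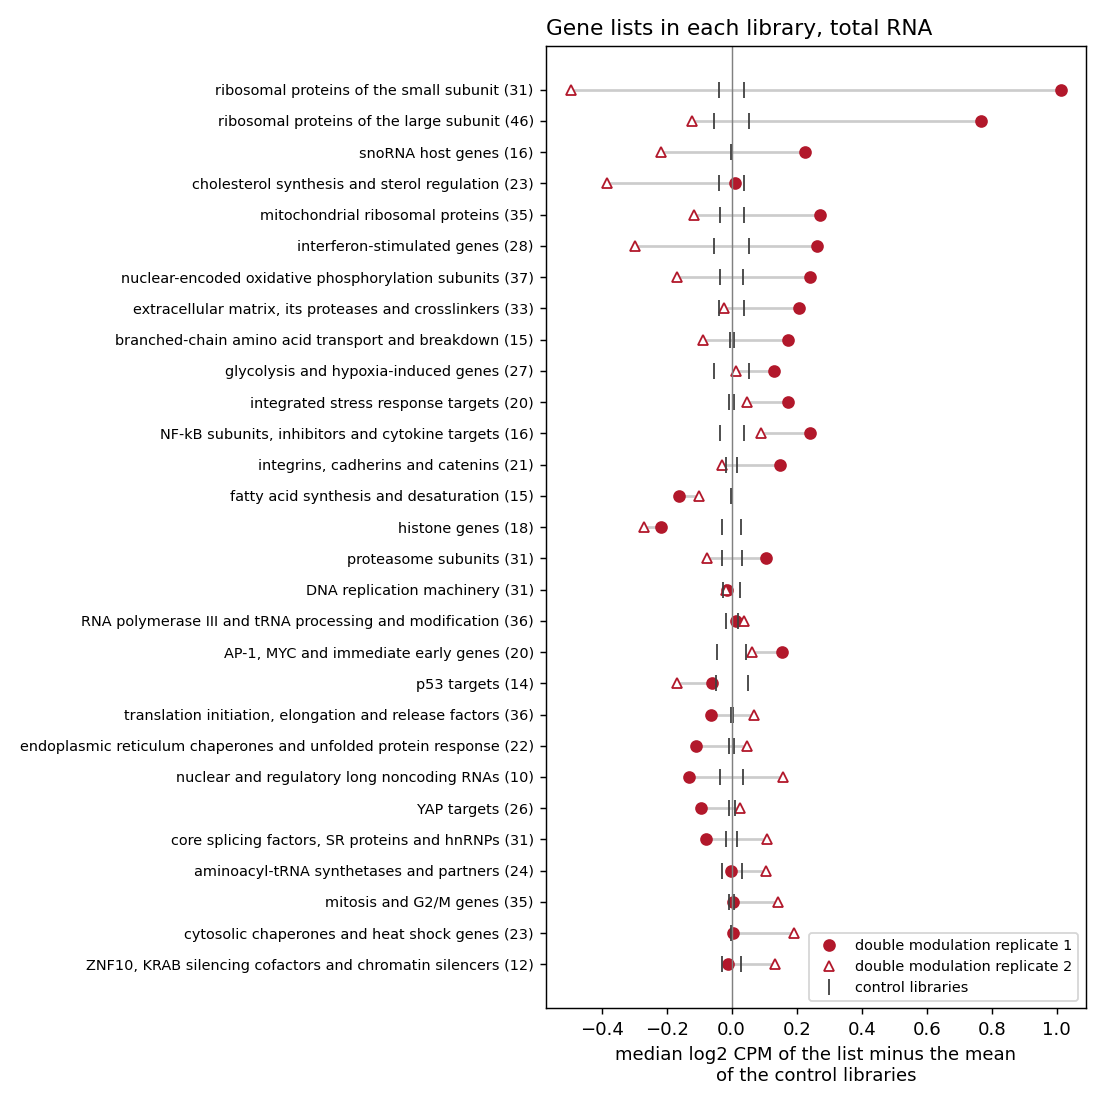
Median log2 CPM of each of the 29 gene lists minus the mean of the control libraries (x axis), with the number of tested genes in parentheses (y axis). Filled circles are double-modulation replicate 1, open triangles double-modulation replicate 2 and ticks the control libraries. The small-subunit ribosomal proteins lie at 1.01 and -0.49, and histone and fatty acid genes lie below control in both libraries.

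The isoleucyl-tRNA synthetases, which charge isoleucine tRNAs, were not called. The cytosolic enzyme gene IARS had 675 and 785 CPM in double-modulation cells and 727 and 703 CPM in control cells, with overlap. The mitochondrial enzyme gene IARS2 had 243 and 286 CPM against 341 and 333 CPM, a log2 fold change of -0.35 ± 0.11 (SE; adjusted p = 0.37 in edgeR's test). It stood at -0.47 without double replicate 2 and at -0.25 without double replicate 1. Of 24 synthetase and partner genes, 6 were above and 5 below control in both libraries, beside 16.2% and 15.6% of all genes. The library medians were -0.0007 in double replicate 1 and 0.11 in double replicate 2. TARS, the threonyl-tRNA synthetase gene, had 632 and 755 CPM against 498 and 501 CPM (adjusted p = 0.216). Branched-chain amino acid transport and breakdown genes numbered 2 above and 1 below of 15. Their median fold change of 0.13 turned to -0.10 without double replicate 1, and the library medians were 0.17 in double replicate 1 and -0.09 in double replicate 2.

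Whether the construct's effect depended on the guide was tested with the guide by construct interaction over the 8 total RNA libraries. In edgeR 0 genes passed (0%), with 312 at an unadjusted p under 0.05; DESeq2 and limma with quality weights called 0 as well, with 89 and 324 at that level. CDH11 had an interaction of -1.03 ± 0.21 (SE), with an adjusted p of 0.998 in edgeR's test. The comparisons with knockdown alone and with the construct alone share the control libraries with the double modulation, so their values are given side by side. With knockdown alone, 2 genes rose (0.0171%) and 1 fell (0.00853%): CDH11, ZNF10 and LAMB1 passed, at log2 fold changes of 2.34, 1.29 and -0.92. HTR1F, SEMA3C, SLC35B4 and CYP51A1 stood at -4.34, -0.74, -0.83 and -0.50 there and did not pass. With the construct alone, 0 genes passed in edgeR, with 233 at an unadjusted p under 0.05.

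Footprints of the same kinds of cells gave a separate readout. There, double modulation called 43 genes as higher (0.528%) and 114 as lower (1.4%) of 8143. Of the genes called in total RNA, CDH11, ZNF10, LAMB1 and SEMA3C were also called there, in the same direction. CDH11 had 73.9 and 71.9 footprint CPM in double-modulation cells and 20.2 and 20.3 footprint CPM in control cells. ZNF10 had 416 and 636 footprint CPM against 185 and 161 footprint CPM. SLC35B4 and CYP51A1 had footprint log2 fold changes of -0.56 and -0.74, with adjusted p of 0.58 and 0.074, and HTR1F was not tested there.

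Of the genes called as higher in footprints, 40 were tested in total RNA, and 22 of them (55%) lay above control in both double-modulation RNA libraries, against 16.2% of all tested genes. Their median RNA log2 fold change was 0.32, and their median level against control was 0.27 in double replicate 1 and 0.33 in double replicate 2. Of the 110 called as lower, 64 (58.2%) lay below, against 15.6% of all tested genes. On chromosome 7 lie 44 of the 110, beside 367 of the 8012 genes tested in both assays. Of all tested genes on that chromosome, 60.6% lay below. The 110 genes had a median RNA log2 fold change of -0.31, with median levels of -0.23 in double replicate 1 and -0.52 in double replicate 2. S100A4, a calcium-binding protein gene tied to metastasis, had 117 and 32.8 CPM in total RNA of double-modulation cells and 168 and 149 CPM in control cells (adjusted p = 0.65), beside 256 and 248 footprint CPM against 807 and 834 footprint CPM. PTK7, a Wnt co-receptor gene, had 51.9 and 27.9 CPM in total RNA against 8.71 and 13.4 CPM (adjusted p = 0.112). PON2, a lactonase gene on chromosome 7, had 8.55 and 5.95 CPM against 22.6 and 16.7 CPM (adjusted p = 0.143). PTK7 and PON2 kept their direction when either double RNA library was left out. PTK7 had log2 fold changes of 1.31 without replicate 1 and 2.21 without replicate 2, and PON2 had -1.71 and -1.19. S100A4 stood at -2.27 without double replicate 1 and at -0.44 without double replicate 2. Each of these fits leaves 1 double-modulation RNA library, so that group has no spread of its own there. The orphan receptor gene GPRC5C had 5.70 and 2.84 CPM against 6.33 and 6.68 CPM, and MDK, which encodes the growth factor midkine, had 4.46 and 1.29 CPM against 3.56 and 2.0 CPM. LXN had too few counts to be tested, and ROR2 and HHIPL1 were listed at 0 in all 8 total RNA libraries. A test of the difference between the footprint change and the RNA change called 0 of 8012 genes in edgeR (0%), with 332 at an unadjusted p under 0.05, and DESeq2 called 0, with 155. Without double RNA replicate 1 this test called 16 genes, and without double RNA replicate 2 it called 604, so the comparison of the 2 assays rested on which RNA library was used.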

How the data were processed

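The titles and characteristics give each library's assay, guide and construct, and these set its group. The deposited values are raw counts per gene, not normalized. Tools named in the submitters' processing notes are cutadapt 1.17, STAR 2.5.2a and HTSeq, on build hg38; settings and annotation are not given in the sources used here. HTSeq's 5 summary lines stayed out of library sizes and tests. In total RNA, 97.2 to 98.1% of alignments were not unique and 0.690 to 1.00% were counted on genes. Of the unique alignments, 62.22 to 65.01% fell on no counted feature in total RNA, against 24.85 to 32.64% in footprints. Depth on genes was 2512247 to 5446599 counts in the 8 total RNA libraries and 358340 to 938909 in the footprint libraries.

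Low genes were removed with filterByExpr (minimum count 10, minimum total 15). TMM scaling and the quasi-likelihood test of edgeR 4.0.16 (R 4.3.3) used all 8 libraries of an assay, with 1 mean per group, which leaves 4 residual degrees of freedom, and Benjamini-Hochberg adjustment over all tested genes. The biological coefficient of variation was 14.3% in total RNA and 6.71% in footprints. The SE given with a log2 fold change is its size divided by the square root of the F statistic of edgeR's test. Levels against control are log2 CPM (prior count 2) minus the mean of both control libraries. With 2 libraries against 2, an exact two-sided permutation test cannot go below p = 0.333, so none was run. Whether strand was used in counting is not given, so overlapping and antisense genes, and families with close copies such as histones and ribosomal proteins, are uncertain. Alternatives were other size factors, DESeq2 1.42.0, limma 3.58.1 with quality weights, no filter, thinning, other sets of libraries or genes, a replicate block and, added after the data were seen, a ribosomal protein score. The scripts' statistics were tested on simulated data. Genes were drawn there independently and with the same spread in all groups, so the wider replicate difference of the double-modulation libraries is not covered.

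Positions came from GRCh38.p14 tables, in which 23752 symbols were current and 1566 older names, with 1167 unmatched; start regions are RefSeq's, and CDH11 had none. The gene lists, markers and named genes were chosen with earlier results of these data known. Named were called genes whose groups do not overlap (up to 14 per direction), called list members, genes called in the interaction or between assays, the 8 genes at each end of the replicate difference, and 13 genes known from earlier results. Other list members and markers in the text were picked as examples after their values were seen. Some genes that the rule or the lists hold are not reported here by name and are not drawn, but they are counted in every total.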

Additional observations from a re-analysis of the deposited data

How the results depend on the processing

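With 2 libraries a group, the counts of called genes depended on which library was left out. Leaving out 1 library at a time gave 0 to 1146 risen and 0 to 691 fallen genes in total RNA, 0 to 514 genes in the interaction, 0 to 604 genes whose footprint and RNA changes differ, and 36 to 125 genes in footprints. The chromosome 7 median then ran from -0.39 to -0.36. Without a filter on low counts, 93 genes rose and 92 fell, and the interaction had 40. DESeq2 gave 6 and 29 (7044 genes had no adjusted p there, among them HTR1F) and 52 in footprints. Quality weights left 1 fallen gene, a fit of the 4 libraries alone 0 risen and 0 fallen, and leaving out chromosome 7 left 2 fallen genes. The ribosomal protein score as a covariate gave 191 and 322, and 28 in the interaction. The chromosome 7 median was -0.35 without the filter and in DESeq2, -0.37 with quality weights and -0.40 with the score. The SD of the difference between the double-modulation libraries was 0.67 with a prior count of 0.5. The causes of these differences were not tested, except that fewer genes or libraries enter some fits.

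The labels do not pair the replicate numbers, and same-numbered libraries deviated together in some groups and apart in others (correlations of -0.42 to 0.36). With the replicate block, 1 gene rose and 0 fell, and the chromosome 7 median was -0.35. The 8 called genes kept their sign under every alternative that gave them a value, and thinning to the shallowest library ended the call of SLC35B4 and CYP51A1 (adjusted p = 0.0741 in edgeR's test for each). Of the other named genes, MDK (0.14) turned to -0.54 with the score and ran from -1.06 to 0.70 when 1 library was left out, IARS (0.03) ran from -0.085 to 0.126 and PRKX (0.14) from -0.13 to 0.38; all of these turned sign. Without a double-modulation library, PTK7, PON2, S100A4 and IARS2 kept their sign, in fits where that group has no spread of its own. At 2512247 counts in the shallowest library, genes with few counts could not be tested, and a change that was not called is not shown to be absent.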

Other observations

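Of the 26485 symbols, 8085 had a count of 0 in all 8 total RNA libraries, and 685 of these had footprints. At least 10 footprints over the 8 footprint libraries were found for 69 of them and at least 100 for 13. The footprint numbers below are raw counts, not scaled for depth. Counts on genes in these libraries were 938909 and 639320 in double-modulation cells and 607919 and 605973 in control cells. EIF4A1, the RNA helicase of translation initiation, had 699 and 495 footprints in double-modulation cells and 357 and 321 footprints in control cells, and was listed at 0 in every total RNA library. ROR2 had 8 and 12 footprints in double-modulation cells against 40 and 25 footprints in control cells. For these genes a value of 0 in total RNA gives no level, and no fold change of RNA was computed. They were chosen after their values were seen.

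CD68 and KRT19 are single markers chosen after their values were seen. CD68, an immune marker that many cell types express at a low level, had 30.8 and 7.0 CPM in double-modulation cells and 8.3 and 13.4 CPM in control cells. KRT19, an epithelial keratin gene, had 115 and 40.1 CPM against 45.1 and 48.1 CPM. The defining immune markers CD3E and CD79A were at 0 in the same libraries.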
